A study of Macaca mulatta with 20 samples.

Results

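Blood of rhesus macaques (Macaca mulatta) was profiled before any irradiation, on 5 of the 20 microarrays of a study of thoracic irradiation. These 5 arrays are the ones titled as pre-irradiation replicates 1 to 5, and no array from a later day enters any value given here. The animals were untreated males of Chinese origin, and the study's methods place the blood draw a few days before a 10 Gy dose of X-rays to the thorax. Ages were given for the study's animals together and not per array. Whole blood was drawn into PAXgene tubes, which fix RNA at the moment of the draw. Globin RNA was then depleted with a kit made for human blood. The RNA was labelled with Cy3 and hybridized to Agilent Whole Human Genome arrays, whose 60-base probes were designed on human transcripts. The labels name 8 animals for the 5 arrays of each day, and the methods state that RNA of 2 animals was pooled once. Which array holds the pool, if any of these 5 does, is not given in the sources used here. Nothing in the labels ties an array to an animal, so the spread described below is the spread between 5 arrays of different blood samples.

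Each array carries 34127 probes of RNA targets. A probe entered the description if its signal was well above background on all 5 arrays, and 15986 probes (46.84%) did so. They stand for 13081 genes when each gene is given its brightest probe. Genes are counted by the annotation's gene name, which for some probes is only a probe name or a transcript identifier. A further 13188 probes (38.64%) were not well above background on any array. The level of a probe is its log2 signal minus the 75th percentile of its own array, so that 0 marks a probe at that percentile. The SD and the range (highest minus lowest array) are on the same log2 scale. With 5 arrays an SD is itself known only within a factor of 0.599 to 2.874 (95% chi-square interval under a normal spread). The small number of arrays also limits how precisely any level below is known.

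Whole blood is a mixture. Neutrophils, which kill bacteria with granule enzymes, and lymphocytes make up most of its nucleated cells. The lymphocytes are T cells, B cells and natural killer (NK) cells. Monocytes, eosinophils and basophils are fewer. Red cells and platelets have no nucleus and carry RNA left from their precursors, most of it globin RNA in red cells. A difference between blood samples in a marker can come from the number of cells of that type or from the RNA in each cell, and in bulk blood these cannot be told apart. Blood counts of these samples were not analysed here.

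The label of whole blood was checked on the defining markers of 8 blood cell types. Each type had at least 3 of its markers on the array, and the genes named here were well above background on all 5 arrays unless stated otherwise. CSF3R, the receptor of the neutrophil growth factor G-CSF, had a level of 7.88 ± 0.56 (SD, n = 5). CD14, the monocyte co-receptor for bacterial lipopolysaccharide, had a level of 5.99 ± 0.50. The T cell receptor chain CD3D stood at 5.56 ± 0.23, and the NK granule protein GNLY stood at 4.75 ± 0.65. All of these lay above the 75th percentile on each array. CD79A, a signalling chain of the B cell receptor, was at 5.76 ± 0.42. PF4, a platelet chemokine, was at 5.79 ± 0.75, and the red cell gene ALAS2, which makes the first step of heme synthesis, was at 10.49 ± 0.14. Apart from ALAS2, these were the brightest detected defining markers of their types. Dimmer ones had mean levels of 0.95 (CXCR2), 0.60 (CD3E), 0.83 (KLRD1) and 0.56 (PRF1). The platelet marker ITGA2B had a mean of -0.83, below the 75th percentile. The eosinophil and basophil markers lay near or below the 75th percentile, with CLC at 0.29 ± 0.81, HDC at -1.05 ± 0.92 and CPA3 at -1.42 ± 0.62. MS4A2 was well above background on 3 arrays and MS4A1, which codes for CD20, on 1 array. FCGR3B and LYZ were not analysed here. Of 29 genes chosen as marks of other tissues (among them lung, liver, muscle, nerve, skin, pancreas and connective tissue), 20 were not well above background on any array. The members detected on all arrays numbered 4 (APOB, CDH5, SCGB1A1 and UMOD), each with a mean below the 75th percentile. XIST, the transcript of the inactive X chromosome, was not well above background on any array, while the Y-linked RPS4Y1 had a level of 5.31 ± 0.31. The study's animals were male.

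The arrays were alike over all probes. Pearson correlations between pairs of arrays lay between 0.965 and 0.982 across the 15986 probes, which are not independent replicates. The median SD was 0.319 over probes and 0.316 over genes, or a factor of 1.245. The median gene had a range of 0.78, or 1.71-fold between its highest and lowest array. Of the 13081 genes, 4060 (31%) had a range above 1, which is over 2-fold. The spread fell with brightness. With the genes cut into 4 equal classes of mean level, 38.5% of the dimmest class had a range over 2-fold and 26.5% of the brightest. Repeated spots show how far single spots of 1 probe differ within an array. On each array 999 probes were printed 10 times, and 570 of them were members. Their median SD between spots of 1 array was 0.0677, against a median SD between arrays of 0.299, which is 4.42 times as large. The SD between arrays was taken on the mean over a probe's spots. The ratio therefore does not give the share of the spread that arises within an array. In 561 of the 570 probes the arrays differed by more than the spots did.

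**Figure D1:**
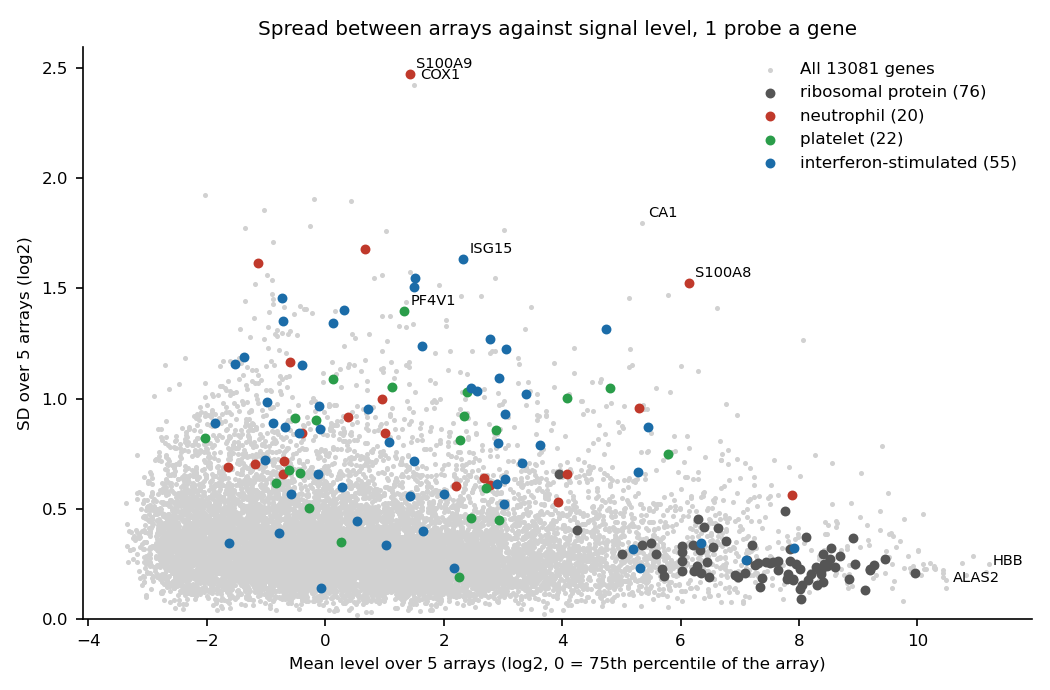
Mean level (log2, 0 is the 75th percentile of the array) on the x axis and SD over 5 arrays (log2) on the y axis for 13081 genes, with the genes of 4 lists in colour. Ribosomal protein genes lie to the right with low SDs, while many neutrophil, platelet and interferon-stimulated genes rise above the cloud.

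Among genes with a mean above the 75th percentile, the lowest SDs included those of MLLT10, TRIM39, GOLGA5, SNAPC4, ZDHHC6, POLDIP3, GMPR2, ANKRD10 and DDX39A, each 0.04 or less after rounding. MLLT10, a cofactor of histone methylation, had levels of 0.55, 0.55, 0.55, 0.50 and 0.53 on replicates 1 to 5. Its 5 arrays thus lay within 0.05 of each other, less than the median SD between spots of 1 probe. Of 16 housekeeping genes, 15 were detected on all arrays and GUSB on none. None of the 15 had a range over 2-fold, beside 31% of all genes. SDs in this list ran from 0.14 for SDHA, a subunit of succinate dehydrogenase, to 0.41 for TFRC, the transferrin receptor. ACTB had an SD of 0.19, PPIA of 0.22, B2M of 0.33 and GAPDH of 0.33. Among the other members were HPRT1 (SD 0.40), RPLP0 (0.32), POLR2A (0.30), RPL13A (0.22), TBP (0.21), PGK1 (0.16) and YWHAZ (0.15).

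The machinery shared by all cells was similarly even. Of 76 detected ribosomal protein genes, all lay above the 75th percentile, beside 56.6% of all genes, and 6 had a range over 2-fold, beside 31%. Their median SD was 0.25, with RPS15 lowest at 0.09 and RPS12 highest at 0.66. Of 76 genes of the mitochondrial respiratory chain coded in the nucleus, 9 passed 2-fold (31% of all genes did), with a median SD of 0.24. NDUFS1 had the lowest SD among them (0.07) and UQCRB the highest (0.81). Of 37 proteasome genes, 4 passed 2-fold, PSMD10 (SD 0.76) being the most and PSMD11 (SD 0.07) the least variable. Of 28 detected genes of DNA damage and repair, 2 passed 2-fold, and OGG1, which removes oxidized guanine, had the lowest SD (0.12). None of 8 clock genes and none of 5 GIMAP genes, GTPases of lymphocyte survival, did so.

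**Figure D2:**
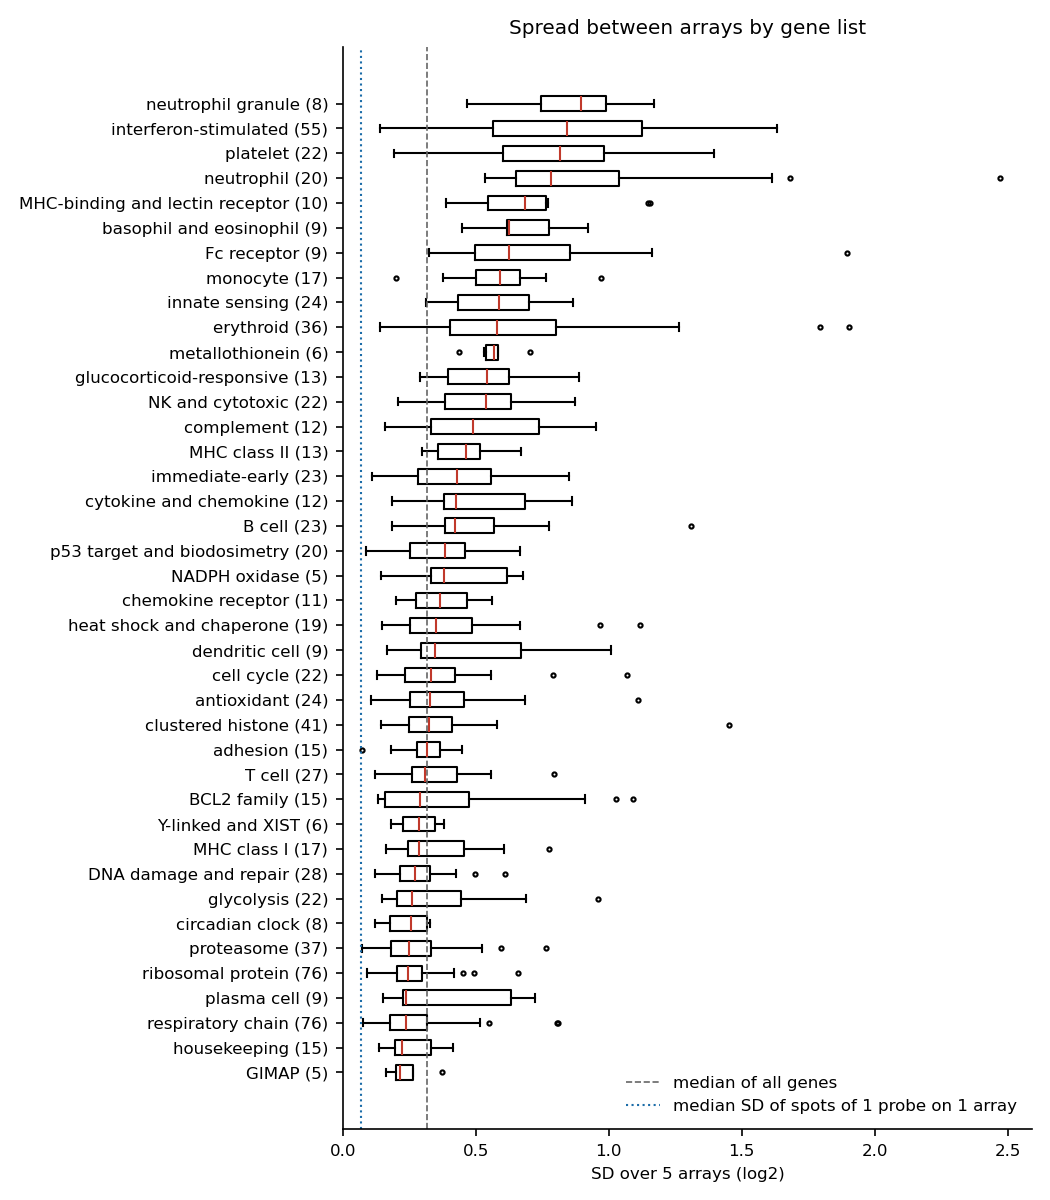
SD over 5 arrays (log2) of the detected genes in each list, with the number of genes in parentheses. Boxes span the quartiles, red lines mark the median, whiskers reach 1.5 times the box and points lie beyond. The dashed line is the median of all genes (0.316) and the dotted line the median SD between spots of 1 probe on 1 array (0.0677). Neutrophil, platelet and interferon-stimulated lists lie to the right of all-cell lists such as ribosomal proteins.

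Of 13081 genes, 83 had a range above 3, or 8-fold. The 25 with the highest SD included the neutrophil genes S100A8, S100A9, S100A12 and PGLYRP1, the interferon-induced genes ISG15, GBP2 and FAM26F, the Fc receptor gene FCGR1B, and the red cell genes CA1 and SELENBP1. COX1, LIME1, LINC01061 and COL11A2 were also among them. So was a transcript at chr6:32609592-32609651 (hg19, listed as ENST00000477036). It lies inside the span of an HLA-DQA1 probe (chr6:32609287-32609758), and the caution on HLA probes given below applies to it. LY6D, PON3, CPAMD8, PODXL, CCDC153, LOC729683, DEFB1, NSG1 and GFRA4 were among the rest.

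COX1 is a name of a cytochrome c oxidase subunit coded in mitochondrial DNA. The array's annotation places the probe listed as COX1 at chr1:567567-567626 of hg19, not on the mitochondrial genome. That position does not settle whether the probe reads mitochondrial RNA, which was not tested. It had levels of 3.52, 1.60, -2.62, 2.01 and 2.95 on replicates 1 to 5. Replicate 3 lay far below the others, and the highest array was 70.6 times the lowest. Probes placed on the mitochondrial genome are given for comparison and were named after their values were seen. COX2 had levels of -0.77, 1.03, -1.73, -1.84 and -1.28, with replicate 3 low beside replicate 4 and replicate 2 apart. ND4 had levels of 2.22, 2.70, 2.90, 3.15 and 3.17, and ATP8 had levels of 1.15, 1.38, 1.53, 0.93 and 0.56. On these last probes replicate 3 lay within or above the range of the other arrays.

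Neutrophil genes varied together. Of 25 genes in the list, 24 had a probe, 20 were detected on all 5 arrays, 3 on some (FPR2, ALPL and CMTM2) and VNN3 on none. All 20 had a range over 2-fold, beside 31% of all genes, and their median SD was 0.78. Replicate 4 was the lowest array for 18 of the 20, beside 19.2% of all genes, and replicate 5 the highest for 15, beside 14.1%. The median of the list, each gene taken relative to its own mean, was -1.08 on replicate 4 and 0.87 on replicate 5. On replicates 1, 2 and 3 it was 0.49, 0.00 and -0.20. Without replicate 4 the range of this median fell from 1.95 to 1.05.

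S100A8 and S100A9 code for calprotectin, a calcium- and zinc-binding protein that fills the neutrophil cytosol, and S100A12 for a related protein. S100A9 had levels of 2.76, 3.06, 1.67, -2.90 and 2.52. S100A8 had levels of 6.95, 6.62, 6.41, 3.47 and 7.24. Replicate 4 stood apart from the other arrays on both, by 13.7-fold from the highest array for S100A8 and 62.3-fold for S100A9. S100A12 had levels of -0.21, -0.85, -2.08, -3.33 and 0.80, and a second probe of the gene gave -0.75, -1.10, -2.81, -4.17 and 0.32. Replicate 5 was highest on both probes. The second probe was well above background on 4 of the 5 arrays, so that its lowest value has no firm rank. The S100A9 probe is the one with the highest SD of all genes. It spans an intron of the human gene at chr1:153330874-153333143 (hg19, plus strand), so that it reads spliced RNA. Its first 30 bases are shown so that they can be set against the macaque transcript, which was not analysed here.
S100A9: gagctggtgcgaaaagatctgcaaaatttt

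PGLYRP1, a granule protein that binds bacterial cell walls, had levels of 1.64, -0.06, -0.20, -1.11 and 3.10. CXCR2, a receptor for interleukin 8, had levels of 2.2, 1.03, 0.28, -0.31 and 1.56. Again replicate 4 was lowest, and replicates 1 and 5 were highest. BASP1 had the lowest SD of the list (0.53) and was lowest on replicate 3. The proteins of the primary and secondary granules are made in the marrow, before neutrophils reach the blood. Of 20 such genes 8 were detected on all arrays, 6 on some and 6 on none, among them ELANE (neutrophil elastase) and DEFA4. All 8 passed 2-fold, which 31% of all genes did. HP, haptoglobin, had the highest SD (1.17) and PRTN3, proteinase 3, the lowest (0.47). Replicate 4 was lowest for 6 of 8 genes, beside 19.2% of all genes.

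Monocyte genes shared part of that pattern. Of 22 genes 17 were detected on all 5 arrays, and CD36, MSR1, MARCO and STAB1 on none. Of the 17, 15 passed 2-fold, beside 31% of all genes, with a median SD of 0.59. Replicate 4 was lowest for 12 of them (19.2% of all genes) and replicate 3 highest for 9 (22.1% of all genes). FCN1, which codes for M-ficolin, a lectin that binds microbial sugars, had levels of 5.63, 5.11, 6.83, 4.18 and 5.05. CSF1R, the receptor of the monocyte growth factor, had levels of 4.76, 5.23, 5.82, 4.57 and 5.47. Replicate 3 was highest and replicate 4 lowest on both. CCR2, the receptor that draws monocytes into tissue, had the lowest SD (0.20). Without replicate 4, the lowest array of this list, the range of the list median fell from 1.26 to 0.47. Leaving out an extreme array tends to narrow a range.

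The lists of innate sensing (Toll-like and related receptors), Fc receptors, lectin receptors, metallothioneins and the NADPH oxidase were lowest on replicate 4 as well. In these 5 lists replicate 4 was the lowest array for 14 of 24, 6 of 9, 5 of 10, 5 of 6 and 4 of 5 detected genes, beside 19.2% of all genes. TLR5, the sensor of bacterial flagellin, had the highest SD of the sensing list (0.87) and TLR10 the lowest (0.31). FCGR1B, of the high-affinity IgG receptor family, had levels of 0.97, -0.66, 3.41, -1.53 and 0.00. It was highest on replicate 3, as interferon-induced genes were. FCGRT, the neonatal Fc receptor, had the lowest SD of its list (0.32). LILRA3 led the lectin and MHC-binding receptors with an SD of 1.16, and CLEC4A was lowest at 0.39. MT2A had the highest SD of the metallothioneins (0.70) and MT1A the lowest (0.44). In the oxidase NCF1 spread most (0.68) and RAC2 least (0.14).

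Platelet genes set a single array apart. Of 31 genes 22 were detected on all 5 arrays, 4 on some and 5 on none (among them GP1BA, GP5, GP6 and MMRN1). Of the 22, 20 passed 2-fold, beside 31% of all genes, and replicate 3 was the lowest array for 20, beside 23.7% of all genes. The list median was -1.37 on replicate 3 and between 0.24 and 0.42 on the other 4 arrays. Without replicate 3 the range of the list median fell from 1.79 to 0.17. PF4 had levels of 6.23, 6.15, 4.47, 6.16 and 5.93. PPBP, the platelet basic protein, had levels of 3.03, 2.73, 0.75, 2.39 and 2.82. On both genes the other arrays did not reach down to replicate 3. ITGA2B, a chain of the fibrinogen receptor, had levels of -0.69, -0.60, -1.92, -0.51 and -0.42. GP9, of the von Willebrand factor receptor, had levels of 3.14, 2.36, 1.85, 3.24 and 3.0. The gap was widest for PF4V1, a near copy of PF4, with levels of 1.95, 1.58, -1.12, 2.31 and 1.97. The arrays' probes of PF4 and PF4V1 may share signal, since the genes are close in sequence. THBS1, thrombospondin, which other cells also make, had the lowest SD of the list (0.19).

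**Figure D3:**
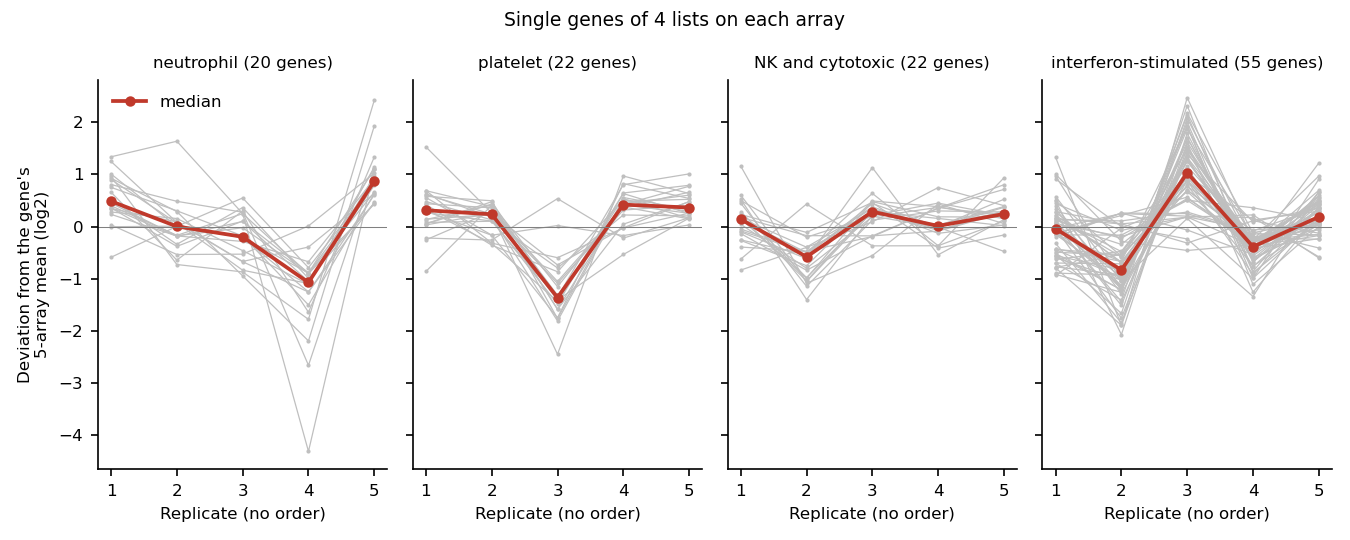
Deviation of each gene from its own mean over 5 arrays (log2, y axis) on replicates 1 to 5 (x axis, no order), in grey for single genes and in red for the list median. The neutrophil median dips to -1.08 on replicate 4, the platelet median to -1.37 on replicate 3 and the NK median to -0.58 on replicate 2, and the interferon-stimulated median reaches 1.03 on replicate 3.

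NK and cytotoxic genes were low on replicate 2. Of 30 genes 22 were detected on all arrays, 15 of them passed 2-fold, beside 31% of all genes, and replicate 2 was lowest for 17, beside 20% of all genes. GNLY had levels of 5.2, 3.6, 4.87, 5.05 and 5.03. PRF1, the pore protein perforin, had levels of 0.71, -0.43, 1.04, 0.75 and 0.74. KLRD1, the CD94 receptor chain, had levels of 1.12, -0.15, 1.12, 0.86 and 1.22. On each of the 3, replicate 2 lay apart and the other 4 arrays lay close together. NKG7, another granule protein, differed in that replicate 3 was high, with levels of 3.44, 2.92, 4.67, 3.0 and 3.68. CD244 had the highest SD of the list (0.87), and the chemokine CCL5 the lowest (0.21). Without replicate 2 the range of the list median fell from 0.87 to 0.18.

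T cell genes were the most even of the cell type lists with over 10 detected genes. Of 29 genes 27 were detected on all 5 arrays, and 9 passed 2-fold, a share (9 of 27) near the 31% of all genes. Their median SD was 0.31. CD3E had levels of 1.08, 0.25, 0.58, 0.70 and 0.40, and CD3G had levels of 5.49, 4.44, 5.14, 4.92 and 4.71. CD2, an adhesion receptor, had an SD of 0.27. LEF1, a transcription factor of naive T cells, was the most variable member, with levels of 5.04, 5.45, 3.57, 5.41 and 4.42. UBASH3A, which damps receptor signals, had an SD of 0.12. The list medians lay between -0.26 and 0.20, and which array was highest depended on the scaling (replicate 1 or replicate 4). Replicates 3 and 5 were lowest for 11 genes each, beside 23.7% and 20% of all genes.

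B cell genes ranged more. Of 26 genes 23 were detected on all arrays and PAX5 on none, and 16 of the 23 passed 2-fold, beside 31% of all genes. CD79A had levels of 5.93, 6.01, 5.58, 6.18 and 5.12. CD79B, its partner chain, had levels of 2.06, 3.21, 2.86, 3.08 and 2.42. Replicates 2 and 4 were highest on both. FCRLA, of the Fc receptor-like family, had the highest SD (1.31) with levels of 0.97, -1.05, 0.61, -1.44 and -2.02, an order that CD79A and CD79B did not show. SPIB had the lowest SD (0.18). Of 9 detected plasma cell genes 3 passed 2-fold, a share near that 31%. IGLL5, an immunoglobulin light chain-like gene, had levels of 5.68, 7.39, 7.27, 7.35 and 7.09, with replicate 1 apart from the others. CD38 had the lowest SD of that list (0.15). The heavy chain genes IGHM, IGHD, IGHG1 and IGHA1 and the light chain gene IGKC were not analysed here.

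Of 9 detected dendritic cell genes 4 had a range over 2-fold, beside 31% of all genes, and their median SD was 0.34 against 0.316 for all genes. LILRA4, a receptor of plasmacytoid dendritic cells, led with levels of 1.8, 3.9, 2.45, 1.70 and 3.57, and IRF4 was lowest (SD 0.17). CLEC9A, CLEC4C and IL3RA were not well above background on any array. All 9 detected basophil and eosinophil genes passed 2-fold (31% of all genes did), from an SD of 0.45 for PTGDR2, a prostaglandin receptor, to 0.92 for HDC, which makes histamine. Of 9 progenitor genes 2 were detected on all arrays. SPINK2 had levels of 2.40, -0.12, -0.17, 0.74 and 0.71, and MYB had levels of 0.46, 0.38, -0.74, 0.66 and 0.18. CD34 was not well above background on any array.

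Red cell genes ranged widely without a common order of arrays. Of 45 genes 36 were detected on all 5 arrays, and 26 passed 2-fold, beside 31% of all genes, with a median SD of 0.58. The list medians lay between -0.18 and 0.32. Replicate 1 was lowest for 14 genes, beside 17.1% of all genes, and replicate 4 highest for 12, beside 17.4%. HBB, beta-globin, was left at a level of 11.16 ± 0.22 after globin depletion. The probe listed as HBD, delta-globin, had a level of 9.88 ± 0.23. Whether the HBD probe reads HBB RNA in macaque blood was not tested. HBG1, a fetal globin, had levels of 6.29, 6.83, 6.74, 4.77 and 5.93 on one probe and 5.99, 6.51, 6.47, 4.69 and 5.60 on another. Replicate 4 was lowest on both, although it was highest for CA1. CA1, carbonic anhydrase of red cells, had levels of 3.29, 6.86, 3.55, 6.99 and 6.00, with replicates 1 and 3 some 3 log2 units below replicates 2 and 4. SELENBP1, a selenium-binding protein, had levels of 1.29, 1.54, 0.66, -2.65 and -1.78, so that its low arrays were different ones. HBA1 and HBG2, near copies of HBA2 and HBG1 whose RNA the same probes may read, were not analysed here.

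Probes of alpha-globin disagreed. HBA2 has 3 probes on the array. A pair that overlap near the 3′ end of the gene (chr16:223560-223619 and chr16:223555-223614, hg19) gave 11.13, 11.04, 11.41, 10.97 and 10.68 (probe a) and 11.29, 11.15, 11.50, 11.27 and 10.83 (probe b). The third, at chr16:222889-222948 around the start codon (probe c), gave 8.36, 9.96, 9.92, 10.02 and 8.04. Replicates 1 and 5 were thus over 1.5 log2 units below the other arrays on probe c, and within 0.73 of all arrays on probes a and b. HBQ1, the theta-globin gene, had levels of 6.87, 8.98, 8.84, 9.13 and 6.52, with the same arrays low.

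The pattern of probe c was not limited to globin genes. On 69 of the 15986 probes both replicates 1 and 5 lay more than 1 below the lowest of the other arrays, and on 30 probes they lay more than 1 above the highest of them. The 69 were chosen by this pattern, so it is no finding about them. They carry 69 gene names in the annotation, some of which are only probe names or transcript identifiers. Among them are NKX1-2, a homeobox gene, and LGR6, a receptor of epithelial stem cells. LIME1 and LINC01061, also among the 25 genes with the highest SD, follow it, and so does 1 probe of COL11A2, a cartilage collagen. The further COL11A2 probes, well above background on all arrays, lay within 0.78 and 1.40 over the arrays. Replicates 1 and 5 were the lowest arrays on these probes as well, but by less than 1. NKX1-2 had levels of 5.34, 7.56, 7.64, 7.69 and 4.82. LGR6 had levels of 2.26, 4.33, 4.41, 4.75 and 1.65. LIME1, an adaptor of lymphocyte receptors, had levels of 1.37, 3.20, 4.23, 5.15 and 1.11. In each the order split the arrays as probe c of HBA2 did. The further probes of LOC284933, LINC01061 and ANKDD1A were not well above background on any array.

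Some of these probes share short words of sequence. Of the 69, 33 (47.8%) hold the letters CCCTCC or CCTTCC, which 5.24% of all 15986 probes hold. Of the reverse complements, GGAGGG or GGAAGG, the shares are 4.35% and 3.73%. CCCTCC alone is in 30.4% of the 69 and 2.43% of all, and CCTTCC in 23.2% and 2.98%. The letters were picked from a count of all 6-base words in these probes, and a match is a description only. The median GC content was 55% in the 69 probes and 45% in all. A stretch of 30 bases from 5 of the 69 is shown with these words in capitals, and one of HBA2 probe c, which holds neither, with the start codon in capitals.
NKX1-2: ctggCCCTCCcggcaccggcgctctgcact
LOC284933: acctcCCCTCCactcgggcctgcttcattg
LGR6: cttggCCTTCCtcagcttcaccttgatact
ANKDD1A: caggtagccaggCCCTCCcaagactgcggt
LIME1: cctaccagaCCCTCCcgctcagggccctgg
HBA2: cacagactcagagagaacccaccATGgtgc
These probes lie at chr10:126136114-126136173 (NKX1-2), chr22:48939134-48939193 (LOC284933), chr1:202288529-202288588 (LGR6), chr15:65223775-65223834 (ANKDD1A) and chr20:62370066-62370125 (LIME1) of hg19. Replicates 1 and 5 also had the highest median ratio of spot signal to local background, 2.42 and 2.46 against 1.97 to 2.05, and were the last of the 5 to be scanned. Whether these probes bind globin RNA, or whether the scan or the slide has a part in the pattern, was not tested.

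**Figure D4:**
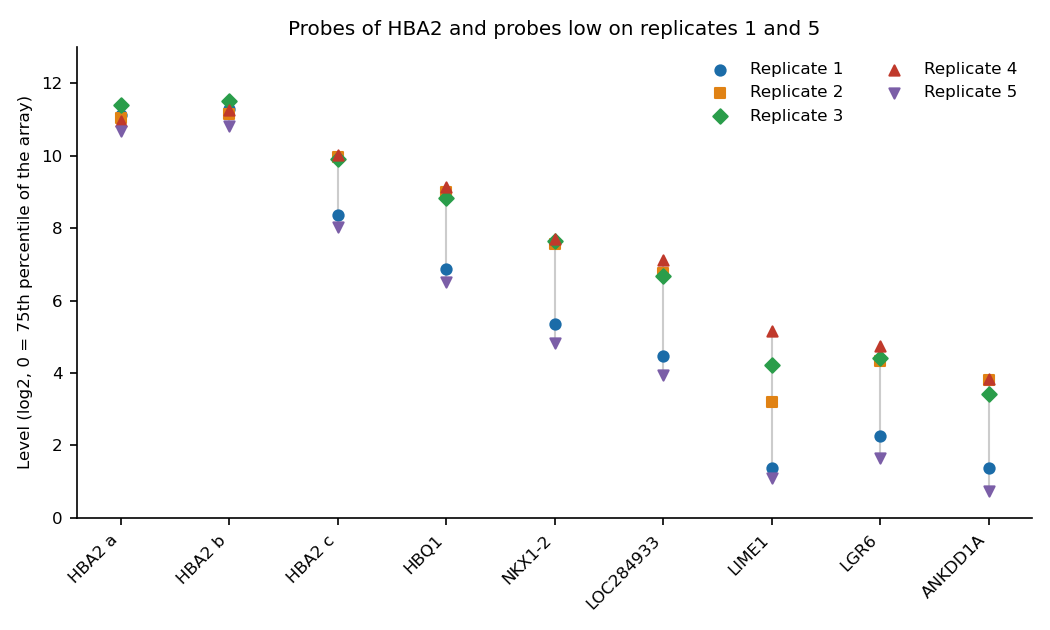
Level (log2, 0 is the 75th percentile of the array, y axis) of 3 HBA2 probes and of single probes of HBQ1 and 5 other genes on the 5 arrays (colours and symbols). Probes a and b of HBA2 lie within 0.73 over the arrays, while on all others replicates 1 and 5 sit below the other arrays by over 1.

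Interferon-stimulated genes split the arrays most clearly among the processes. Interferons are signals of viral infection that switch on a large set of antiviral genes in nearly all blood cells. Of 64 such genes 55 were detected on all 5 arrays, and 45 of these passed 2-fold, beside 31% of all genes. Replicate 3 was the highest array for 45 of 55, beside 22.1% of all genes, and replicate 2 the lowest for 36, beside 20%. The list medians on replicates 1 to 5 were -0.04, -0.84, 1.03, -0.39 and 0.19. Without replicate 3 the range of the list median fell from 1.87 to 1.09.

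ISG15, a ubiquitin-like protein joined to other proteins after interferon, had levels of 1.54, 0.43, 4.81, 2.07 and 2.82. The highest array was 20.7 times the lowest.
GBP2, a GTPase that attacks vacuoles of pathogens, had levels of 2.84, -0.39, 3.11, 0.25 and 1.74, with replicate 1 close to replicate 3. MX1, a GTPase that blocks influenza virus, had levels of -1.04, -2.57, 0.71, -1.20 and 0.50. On both, replicate 3 was highest and replicate 2 lowest. OAS1, a sensor of double-stranded RNA, was well above background on 3 arrays. IFI27, DDX60L, PLSCR1, GBP5, SIGLEC1 and LAMP3 were not on any. ZBP1, a sensor of left-handed nucleic acid, had the lowest SD (0.14). Replicate 3 was also the array with the lowest platelet genes, and replicate 2 the one with the lowest NK genes. These lists share arrays, and no test of a link between them was made.

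Genes of antigen presentation were often highest on replicate 3 too. Of 17 detected genes of MHC class I presentation 5 passed 2-fold, near the 31% of all genes, and replicate 3 was highest for 13, beside 22.1% of all genes. PSMB8, an immunoproteasome subunit induced by interferon, had the highest SD (0.77), with levels of 2.07, 3.41, 3.89, 2.22 and 2.85. ERAP1, which trims peptides, had the lowest (0.16). Of 13 detected class II genes 9 passed 2-fold, beside 31% of all genes. Replicate 3 was highest for 9 of the 13, beside 22.1% of all genes, and replicate 1 lowest for 6, beside 17.1%. CD74, the invariant chain, had levels of 1.22, 2.79, 2.87, 2.57 and 2.35, with replicate 1 lowest. HLA-DPA1 had the lowest SD (0.30). Probes of HLA-DQA2 gave opposite pictures. One gave 4.03, 5.04, 2.36, 5.57 and 3.96 and the other 5.23, 5.26, 4.62, 2.56 and 2.81, so that replicate 4 was highest on the first and lowest on the second. HLA genes differ between individuals and have near copies, and the probes were designed on human alleles, so these values are uncertain as levels of a gene.

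**Figure D5:**
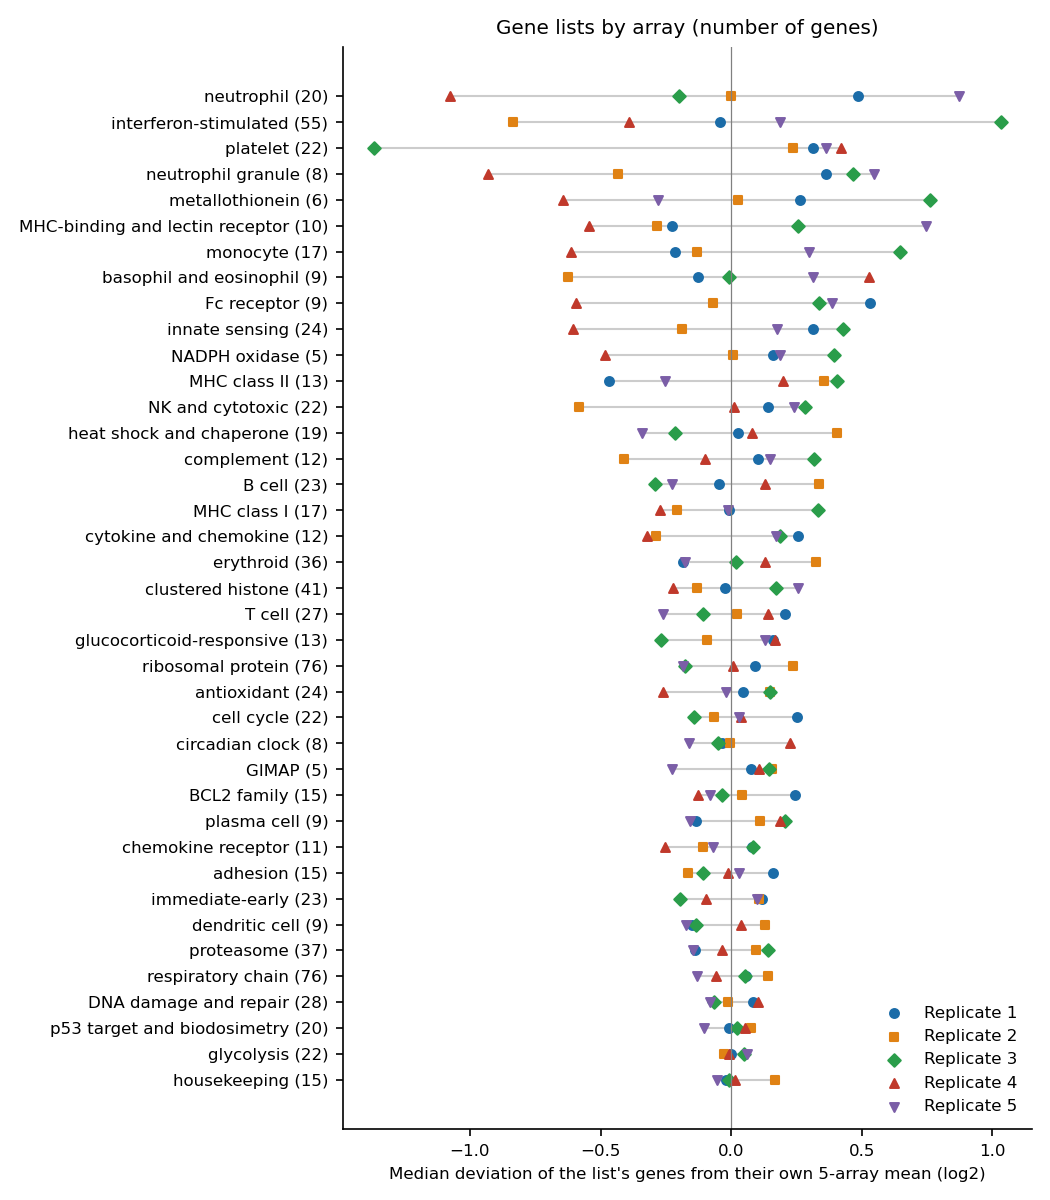
Median deviation of each list's genes from their own mean over the 5 arrays (log2, x axis) by array (colours and symbols), with the lists ordered by the range of their medians and housekeeping at the bottom. Neutrophil, interferon-stimulated and platelet lists reach ranges of 1.95, 1.87 and 1.79, and the housekeeping list 0.22 (0.39 under median scaling, 0.33 under normexp and 0.099 without replicate 2).

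Heat shock and chaperone genes, which rise when proteins unfold, were highest on replicate 2 for 17 of 19 detected genes, beside 20.9% of all genes. The list passed 2-fold in 7 of 19 genes, a share near the 31% of all genes. HSPA1B, an inducible HSP70, had levels of 1.70, 4.24, 1.99, 1.5 and 1.93. Replicate 2 stood alone. The gene is nearly identical to HSPA1A, so its probe may read both. HSP90AA1, the inducible HSP90, had levels of 5.72, 6.31, 5.05, 5.71 and 5.17, again highest on replicate 2. HSP90B1 of the endoplasmic reticulum had the lowest SD (0.15). Ribosomal protein genes were also highest on replicate 2, for 44 of 76, beside 20.9% of all genes. They differed by less, with list medians between -0.18 and 0.24.

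Clustered histone genes, whose transcripts mostly lack a poly(A) tail, passed 2-fold in 12 of 41 detected members, near the 31% of all genes. Replicate 4 was lowest for 17, beside 19.2% of all genes, and replicate 5 highest for 17, beside 14.1%. HIST1H3D had levels of 4.72, 4.44, 4.74, 4.07 and 7.68, with replicate 5 apart. HIST1H1D had the lowest SD (0.14). Of 40 cell cycle genes 22 were detected on all arrays, and 8, among them TOP2A, TYMS and RRM2, on none. CENPE, a motor of the mitotic spindle, had levels of 0.11, -0.44, -2.49, -1.98 and -1.14. Replicate 1 was highest for 12 of the 22 cell cycle genes, beside 25.5% of all genes. MCM6, a helicase subunit of replication, had an SD of 0.13.

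Shares over 2-fold in the stress and signalling lists are to be read against the 31% of all genes. Of 23 detected immediate-early genes 10 passed 2-fold, with FOS at 1.82, 2.19, 0.96, 2.14 and 3.32 the most variable and TNFAIP3, a brake on NF-kB, the least (SD 0.11). Of 27 cytokine and chemokine genes 12 were detected on all arrays and 9 on none, including IL6, IL10, CCL2 and CXCL8. PTGS2, which makes prostaglandins, had the highest SD (0.86) and TGFB1 the lowest (0.18). Glucocorticoid-responsive genes passed 2-fold in 9 of 13, with DDIT4, an inhibitor of mTOR signalling, at 1.95, 1.33, 0.43, 2.85 and 1.54, and SMAP2 had the lowest SD (0.29). Complement genes passed 2-fold in 8 of 12, again beside 31%. CFD, complement factor D, had levels of 5.94, 5.51, 6.08, 3.74 and 5.67, with replicate 4 apart, and CD55, which protects cells from complement, had an SD of 0.16. Of 20 detected p53 target and biodosimetry genes, used elsewhere as blood markers of radiation dose, 9 passed 2-fold, beside 31% of all genes. SESN1 had the highest SD of these (0.67) and PHPT1 the lowest (0.09), and the list medians lay within 0.18 over the arrays. That range depended on the processing, at 0.35 under median scaling, 0.57 in the deposited values (10 genes), 0.27 with probes detected on at least 1 array, 0.11 with all probes of a gene averaged, 0.26 without replicate 1 and 0.096 without replicate 5. CDKN1A, the p53 target p21, was well above background on 2 arrays.

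In the remaining lists the most and least variable members were as follows. Antioxidant genes had PRDX2, a peroxiredoxin of red cells, at -1.73, 1.01, 0.58, 0.86 and 0.20, and PRDX6 at an SD of 0.11. Glycolysis genes had HK3, the hexokinase of myeloid cells, with an SD of 0.96 and PGAM1 with 0.15. BCL2 family genes had BCL2A1, a survival gene of myeloid cells, at 1.78, 1.93, -0.31, 0.32 and 2.12, and BBC3 at an SD of 0.13. Of 11 detected chemokine receptors 5 passed 2-fold, beside 31% of all genes, and CCR2 had the lowest SD (0.20). Adhesion genes had ICAM2 with 0.45 and CD99 with 0.07. In the GIMAP family GIMAP7 had 0.37 and GIMAP5 0.16, and in the clock list RORA had 0.33 and ARNTL 0.12. CDH5 and APOB, endothelial and liver genes, had SDs of 0.27 and 0.41, and the Y-linked KDM5D and USP9Y had 0.18 and 0.38.

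A few genes were also chosen for qRT-PCR in the study, and their baseline levels on the arrays were as follows. MARCKSL1, a regulator of actin, had levels of -0.06, 0.28, -0.15, 0.42 and -0.73. FAIM3, an IgM receptor of B cells, had levels of 1.31, 1.96, 1.89, 2.37 and 1.72. LY96, the partner of Toll-like receptor 4, had levels of -0.50, -0.80, 0.13, -1.62 and 0.58, lowest on replicate 4 as most innate sensing genes were. IL1R1, the interleukin 1 receptor, had levels of -1.34, -2.04, -1.89, -2.02 and -0.66 on one probe, and its second probe was not well above background on any array.

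Among genes with more than 1 member probe, probes agreed only in part on how the arrays were ordered. There were 2423 such genes, and in each the 2 brightest probes were compared. In 325 genes both probes had a range over 2-fold, and the probes shared their highest array in 197 (60.6%) and their lowest in 187 (57.5%). In 826 genes 1 of the 2 probes passed 2-fold and the other did not. With each probe taken relative to its own mean, the probes differed by over 2-fold on at least 1 array in 230 genes (9.49%). The largest disagreements, with the genes named after their values were seen, included CELSR1, CERS6 and RPL13. CELSR1, a cadherin, gave 5.73, 6.24, 6.05, 6.16 and 5.75 on one probe and 1.16, -3.10, -0.39, -0.47 and 1.52 on another. RPL13 gave 9.46, 8.90, 9.26, 9.33 and 9.06 on one probe and 3.87, 5.73, 3.36, 3.50 and 3.38 on another, where replicate 2 stood alone. CERS6, a ceramide synthase, had levels of -2.43, 0.47, -2.25, -2.60 and -1.64 on one of its probes, with replicate 2 highest. Sequence differences between the human probes and macaque RNA were not analysed here.

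The spread differed with the GC content of the probe, and not in one direction. A range over 2-fold was found in 34.3% of probes of up to 35% GC, 29.6% of those up to 45%, 31.2% of those up to 55%, 37.1% of those up to 65% and 53.3% of the 291 above 65%. Above 65% GC the median deviation was 0.41 on replicate 3, 0.22 on replicate 4 and -0.37 on replicate 5. The lists of neutrophils, platelets, NK cells and interferon-stimulated genes had median GC contents of 45%, 45%, 45% and 43.3%. With each array's median deviation within GC bins removed, a setting chosen after seeing the data, the ranges of their list medians were 1.98, 1.78, 0.89 and 1.95, against 1.95, 1.79, 0.87 and 1.87.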

How the data were processed

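Per the file headers, the scanner files of the 5 pre-irradiation arrays were made with Agilent Feature Extraction 12.0.2.2 (the submitters' processing notes name 10.7). In these deposited files the processed signal is an intensity, background subtracted and not normalized between arrays. The authors also deposited log2 values of 5885 items, which, for probes printed once, differed from log2 of the processed signal by a single offset on each array (tolerance 0.001). The rule behind that offset is not given in the sources used here. The column medians were 7.72, 7.61, 7.61, 7.62 and 7.66. The 15 columns of later days were not used.

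Control spots and spots marked as outliers were left out, log2 values of spots of 1 probe were averaged, and the 75th percentile over all probes of each array was subtracted. A probe counted as well above background where at least a share of 0.5 of its spots did. No spot was saturated. Between 50.9% and 58.7% of spots per array were well above background. Each gene took the probe with the highest mean among its member probes. There are 42 gene lists. The members and lists were chosen with earlier results of these data known. Genes named are the defining markers, the members of each list with the highest and lowest SD, the 25 genes with the highest SD, the 10 with the lowest SD among those above the 75th percentile, the housekeeping genes, the genes of the study's qRT-PCR, and others said to be chosen after their values were seen (within lists, those given with array values beyond the rule were also chosen that way). Some items that these rules name are not reported here. With 1 group no test between groups was made, and Dixon's criterion was applied to single arrays. Counts of genes ranging over 2-fold are to be read against the share of all genes (31%). Gene symbols are those of the array's annotation, and 9948 of the 13081 occur in the rhesus gene table. Positions are of the human build hg19. The steps were tested on simulated data. Alternatives were quantile and median scaling, limma 3.58.1 normexp correction with an offset of 50 (on the mean and local background intensity that the authors deposited), marked spots kept, other filters on dim probes, the deposited values, the mean over all probes of a gene, each array left out, and, chosen after seeing the data, centring within 5 bins of GC content. Python 3.11.15, pandas 2.3.3, scipy 1.17.1 and R 4.3.3 were used.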

Additional observations from a re-analysis of the deposited data

Results flagged for a closer look

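A result is listed here where 1 of the 5 arrays lay so far from the other 4 that Dixon's criterion for 5 values was passed. Chance passes about 1 in 20 groups, and 5.01% of all 13081 genes passed. Of 38 list medians 2 did, the platelet list with replicate 3 low at -1.37 and the GIMAP list with replicate 5 low at -0.23. Of 153 genes named by rule 15 passed (9.80%), and these genes were named for extremes of spread or for their cell type.

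Replicate 3 was low for the platelet genes PF4 (4.47), PPBP (0.75), ITGA2B (-1.92) and PF4V1 (-1.12). Replicate 4 was low for S100A8 (3.47), S100A9 (-2.90) and CFD (3.74). Replicate 2 was low for the cytotoxic genes GNLY (3.6), PRF1 (-0.43) and KLRD1 (-0.15) and high for HSPA1B (4.24) and NDUFS1 (3.87). Replicate 1 was low for IGLL5 (5.68), replicate 5 was high for HIST1H3D (7.68), and replicate 3 was high for GFRA4 (1.48), a receptor of the GDNF family.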

How the results depend on the processing

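The number of member probes was 15986, was the same with marked spots kept, was 17501 and 20938 with the filter at 4 arrays or 1, and lay at 16014 to 17170 with 1 array left out. The median spread between arrays was 0.319 and lay between 0.299 and 0.322 with 1 array left out. It was 0.25 under normexp, whose offset shrinks differences of dim probes by construction, 0.36 with probes well above background on at least 1 array, and 0.48 over the 5335 probes of the deposited values, which are another set of probes. The share of probes ranging over 2-fold was 31.5% and became 15.3% under normexp, 65.5% in the deposited values and 22.9% to 27.3% with 1 array fewer.

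The range of the list median over arrays, with 1 array left out, was 1.05 to 1.97 for neutrophil, 0.47 to 1.28 for monocyte, 0.31 to 0.47 for T cell, 0.18 to 0.96 for NK and cytotoxic, 0.46 to 0.59 for B cell, 0.17 to 1.77 for platelet, 0.29 to 0.64 for erythroid and 1.09 to 1.88 for interferon-stimulated genes. The spread between spots was 0.066 to 0.069. For the erythroid list the range was 0.81 in the deposited values against 0.51, and the cause was not tested. In these 8 lists the lowest array stayed the same in 6 to 8 lists and the highest in 5 to 8 under each alternative other than leaving out an array. For neutrophil, monocyte and interferon-stimulated genes both stayed under each of these alternatives, and for platelet and NK genes the lowest did. The changes fell to T cell, B cell and erythroid lists and to the highest array of NK and platelet lists.

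The ranges of even lists were less stable. For housekeeping genes the range was 0.22, against 0.39 under median scaling, 0.33 under normexp, 0.996 in the deposited values, which hold 2 of these genes, and 0.099 without replicate 2. For p53 targets it was 0.18, against 0.35 under median scaling and 0.57 in the deposited values (10 genes). The deposited values also gave 0.70 over 27 ribosomal protein genes (0.42 over all 76), 0.87 over 2 proteasome genes (0.29 over 37) and 0.90 over 10 glycolysis genes (0.09 over 22). These are smaller sets of genes.

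The slide as a block was not run, because each array lay on its own slide, so that slide and blood sample cannot be told apart. No paired analysis was possible because there is 1 group. Signal over background limits what can be said of dim genes, and 5 arrays limit every SD.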
